A study of Rattus norvegicus with 20 samples.

Results

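The transcriptome described here is that of the central nucleus of the amygdala (CeA) in water-only animals: 10 of the 20 arrays of the series, chosen by the label that gives water as the treatment. All 20 animals were alcohol-preferring (P) rats, a line selectively bred for high voluntary alcohol intake. The 10 water animals, numbered 12 to 21 in the labels, had no ethanol, and the other 10, which had ethanol solutions during adolescence, were not used. RNA of each animal was hybridised to its own Affymetrix rat array, so each value below is 1 animal and the spread is that between animals. The labels give neither sex nor age at collection and no batch. The 10 animals form a single group, so no contrast is made, and the ranks, levels and spreads are descriptions of these animals.

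The CeA is the main output nucleus of the amygdala. Most of its neurons release GABA, and many also make neuropeptides such as enkephalin, dynorphin, neurotensin, somatostatin and corticotropin-releasing hormone, which take part in fear, stress, pain and reward. Its neurons share their striatum-like embryonic origin with the neighbouring caudate putamen, and it lies beside the glutamatergic basolateral amygdala, the cholinergic cells of the basal forebrain, the optic tract and, towards its caudal end, the lateral ventricle with its choroid plexus and ciliated ependyma. A tissue sample of it therefore can hold RNA of all of these.

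Values are log2 probe set signals made by robust multi-array average (RMA). For a gene with several probe sets the one with the highest mean stands for the gene, which gave 14217 named genes. In what follows 3 values in a row are the lowest, the median and the highest of the 10 animals, and the rank is the place of the gene's mean among the 14217 genes, with 1 the highest. A rank orders signal on this array. It does not order transcript abundance, since probes differ in how strongly they bind: among the 4525 genes with several probe sets, the median distance between a gene's highest and lowest probe set was 2.27 on the log2 scale. A gene was counted as above the expression threshold where its mean exceeded the 40th percentile of the 31042 probe sets that are not array controls, a log2 value of 7.14. By this rule 10171 genes (71.5%) were above and 4046 were below. Counts of list members above the threshold are to be read beside this share, and no list was tested against it. As a floor, the 19 probe sets of olfactory and vomeronasal receptors, which are made in the nose, had a median of 5.07 and a highest mean of 6.21, and 0 of them were above the threshold.

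The 10 water arrays were alike in level, with medians of 7.92 to 7.97, and the correlation between any pair of them was 0.981 to 0.997. Animal 18 stood apart, with a mean correlation of 0.985 with the others, 4.52 scaled median absolute deviations below the median of the 10 arrays. Animal 15 had the largest distance between 3' and 5' probe sets of actin, 3.08 on the log2 scale against 2.23 to 2.98 in the other 9. The distance for GAPDH was largest there too, 0.797 against 0.259 to 0.484. Both distances also followed the order of the arrays in the series. For GAPDH it was 0.356 to 0.797 in animals 12 to 15, 0.278 to 0.313 in 16 to 19 and 0.259 to 0.262 in 20 and 21. For actin it was 2.59 to 3.08, 2.32 to 2.50 and 2.23 to 2.58. No label calls these runs of animals a batch. Such a distance depends on how intact the RNA was and on how far labelling reached along a transcript, which cannot be told apart here. Both were kept. The count of variable genes, the share of the first component and the marker pairs are also given with animals left out. The groups, the list deviations and the component scores are given only with all 10 animals. Of the sex-linked genes, the Y-linked Eif2s3y (10.47, 10.78 and 11.08) and Uty (9.30, 9.57 and 10.09) were above the threshold in every animal, and Xist, the RNA of the inactive X chromosome, was below it in every animal (4.43, 4.68 and 4.83).

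The 20 genes with the highest signal included 2 mitochondrial and 4 ribosomal protein genes. The mitochondrial genes COX1 and COX2, subunits of the respiratory chain's cytochrome c oxidase, held ranks 1 and 2, at 16.01, 16.11 and 16.13 for COX1 and at 15.98, 16.04 and 16.05 for COX2. Rank 3 went to Mbp, myelin basic protein (15.24, 15.63 and 15.81). The ribosomal protein genes Rps29, Rps23, Rpl26 and Rpl27a held ranks 4, 8, 12 and 17, and the elongation factor Eef1a1 held rank 15. Zwint, best known as a kinetochore protein, held rank 5 (15.36, 15.52 and 15.59), and Cpe, the carboxypeptidase that trims neuropeptide precursors, held rank 6 (15.25, 15.37 and 15.46). The others of the leading 20 were Tmsb4x and Actg1 of the actin cytoskeleton, the protease inhibitor Cst3, the lipid carrier Apoe, the calmodulin gene Calm2, Rtn1 of the endoplasmic reticulum, the matrix protein Sparcl1, the fatty acid desaturase Scd2, the G protein gene Gnas and the adaptor Ywhah. The SD of these 20 ran from 0.026 for COX2 to 0.21 for Gnas. COX1 and COX2 lay close to the highest value on these arrays, 16.13, and whether their signal was saturated was not tested.

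The genes of GABA synthesis and transport covered a wide range of ranks. Gad1, which encodes the larger glutamate decarboxylase that makes GABA, held rank 67 at 14.04, 14.34 and 14.44. Slc32a1, the vesicular transporter of GABA and glycine, held rank 837 (11.85, 12.24 and 12.43), and Gad2, the other decarboxylase, rank 1011 (11.61, 12.06 and 12.45). In all 3 the lowest value came from animal 18. Gphn, gephyrin, which anchors inhibitory receptors, held rank 2131. The GABA-degrading Abat held rank 6857. Of the 7 measured genes of GABA synthesis and transport 5 were above the threshold, about the same share as the 71.5% of all genes, with a median rank of 2131, and those below were the GABA transporters Slc6a13 (6.52, 6.75 and 7.69) and Slc6a11 (5.14, 5.37 and 5.51).

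All 7 measured genes of glutamate handling were above the threshold, led by the astrocytic transporter Slc1a3 (rank 151) and the glutamine synthetase Glul (rank 199). The vesicular glutamate transporters that mark glutamatergic neurons had ranks in the lower part of the genes above the threshold. Slc17a6, typical of thalamus and hypothalamus, held rank 7739 (7.77, 8.78 and 9.30, SD 0.50). Slc17a7, typical of cortex and basolateral amygdala, held rank 9430 and varied widely, at 6.28, 7.55 and 9.68 (SD 1.21). It was highest in animal 20 and lowest in animal 17, and in 4 of the 10 animals it was below the threshold. The other probe set of Slc17a7 had a mean of 6.17 and correlated with the higher at r = 0.89 over 10 animals.

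Monoamine cell bodies lie elsewhere in the brain, and the genes that mark them were mostly below the threshold. Of 12 measured genes of monoamine synthesis and transport 4 were above the threshold, against 71.5% of all genes. They were the degrading enzymes Maoa (rank 1459) and Maob (rank 1484), the decarboxylase Ddc (8.32, 8.75 and 9.08) and, just above, the vesicular transporter Slc18a2 (6.89, 7.20 and 7.52). The tyrosine hydroxylase Th, the first enzyme of catecholamine synthesis, lay below (6.47, 6.71 and 6.98), as did the dopamine, noradrenaline and serotonin transporters Slc6a3, Slc6a2 and Slc6a4, with means of 6.05, 5.17 and 5.03. The others below were Slc18a1, Hdc, Dbh and Pnmt. Genes of acetylcholine release were above the threshold in 3 of 4 cases and varied together. The choline transporter Slc5a7 read 9.25, 9.98 and 11.55, the choline acetyltransferase Chat 6.91, 7.82 and 9.39, and the vesicular transporter Slc18a3 6.15, 7.06 and 8.32. All 3 were highest in animal 17 and lowest in animal 15. Chat read 6.91 to 7.53 in animals 12 to 15, 8.16 to 9.39 in 16 to 19, and 7.09 and 8.10 in 20 and 21. These are runs of the accession order. With values centred within them the SD was lower: 0.46 against 0.84 for Chat, 0.44 against 0.78 for Slc5a7 and 0.38 against 0.66 for Slc18a3. What part of this spread goes with the runs was not tested. Bche was below the threshold.

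Neuropeptide genes are a hallmark of this nucleus, and 18 of the 32 measured were above the threshold, a smaller share than the 71.5% of all genes. Penk, which encodes proenkephalin, led them at rank 39 and was nearly level between animals, at 14.28, 14.55 and 14.66 (SD 0.12). Sst, somatostatin, followed at rank 389 (12.99 ± 0.47, SD, n = 10), and Pdyn, prodynorphin, at rank 762 (11.42, 12.47 and 12.75). Npy, neuropeptide Y, held rank 1242 with 11.20, 11.82 and 12.28. In Sst animal 16 was lowest, and in Pdyn animals 13 and 16 lay below the other 8.

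A set of peptides with intermediate signal varied more. Nts, neurotensin, held rank 1325 at 10.29, 12.04 and 12.62 (SD 0.82). Cartpt, the CART prepropeptide, held rank 1878 at 10.34, 11.24 and 12.33 (SD 0.57), and Tac3, neurokinin B, rank 2649 at 9.50, 11.19 and 11.67 (SD 0.76). In these 3 the lowest animal was 13 or 16. Nmb, neuromedin B (8.71, 10.36 and 11.17), Pnoc, the nociceptin precursor (8.95, 10.05 and 10.96), and Crh, corticotropin-releasing hormone, rank 5238 (8.26, 9.99 and 10.86, SD 0.91), followed. Animals 13 and 16 were the lowest for Nmb and Crh, and animals 15 and 16 for Pnoc. Tac1, the substance P precursor, ran the other way, with 10.15, 10.55 and 11.66 and animal 16 highest.

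Lower in rank, Cck read 9.98, 10.46 and 11.17, Gal 8.90, 9.39 and 10.25, and Apln, the ligand of the apelin receptor, 9.98, 10.24 and 10.46. Grp, gastrin-releasing peptide, ran from 7.62 to 10.58 (median 8.66, SD 1.12), Vip from 7.77 to 9.42 (median 8.18) and Adcyap1, which encodes PACAP, from 6.78 to 9.34 (median 7.89). In these 3 animals 13, 15, 16 and 20 held the 4 highest values, and the same 4 animals were highest for Slc17a7. Avp, vasopressin, was the last above the threshold (7.32, 7.76 and 8.31). In all, 9 of the 18 peptides above the threshold had an SD over 0.5, against 2.08% of all genes above it (212 of 10171).

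**Figure D1:**
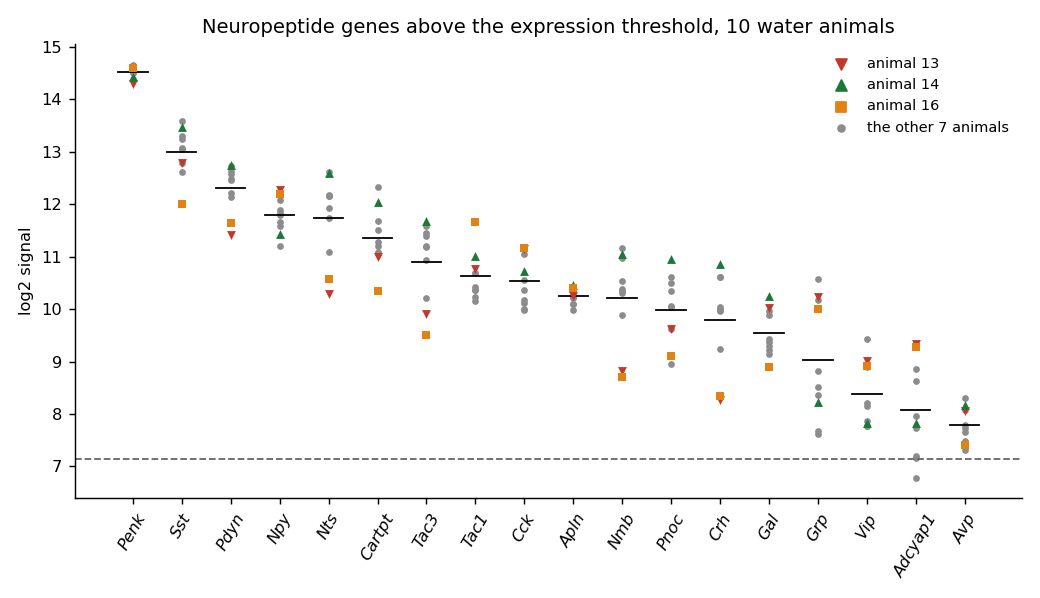
Log2 signal of the 18 neuropeptide genes above the expression threshold (dashed line, 7.14), with 1 point per water animal and a bar at the mean of 10. Penk sits at 14.28 to 14.66 in all animals, while Crh runs from 8.26 to 10.86 with animals 13 and 16 (coloured) at its lower end.

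The 14 peptides below the threshold were mostly those of the hypothalamus, the brainstem or vessels. The hypothalamic peptides Hcrt, Pmch, Pomc, Trh and Oxt had medians of 6.92, 6.72, 6.69, 5.97 and 5.71. Pmch was at 8.72 in animal 19, while its median was 6.72, and Oxt reached 6.99 in animal 17. Calca, whose peptide CGRP reaches the CeA in axons from the parabrachial nucleus, read 6.46, 6.75 and 6.80. The remaining ones were Nmu, Nppc, Edn1, Adm, Calcb, Ucn, Rln3 and Ucn2, with means of 5.08 to 6.77.

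The machinery of peptide release was above the threshold throughout. All 10 measured genes of granins and peptide processing were above the threshold, with a median rank of 553.5. After Cpe came the secretogranins Scg5, Scg2 and Scg3 at ranks 104, 123 and 277. Chgb and Chga, the chromogranins, read 12.52, 12.85 and 13.12 and 11.50, 12.08 and 12.44. Scg2 and Chga had the largest spread of this list, with SDs of 0.24 and 0.31. The convertase Pcsk2, which cleaves precursors, was the lowest at 7.61, 7.91 and 8.38.

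Of the 4 opioid receptor genes those above the threshold were Oprl1, the nociceptin receptor (9.29, 9.76 and 9.90), and Oprk1, the kappa receptor for dynorphin (7.60, 8.42 and 9.08). Oprm1, the mu receptor, lay below the threshold on both of its probe sets, at 6.41, 6.56 and 6.73 on the higher, as did the delta receptor Oprd1 (5.48, 5.62 and 5.93). Of the stress peptide genes, Adcyap1r1, the PACAP receptor, held rank 612 (12.30, 12.55 and 12.72). The VIP receptors Vipr2 (8.22, 8.80 and 9.23) and Vipr1 (6.74, 7.16 and 7.82) were above the threshold on average too, and Crhbp, which binds and buffers the hormone Crh, was below the threshold (6.70, 6.93 and 7.27). Crhr1 and Crhr2 were not matched to a probe set with a single symbol, so nothing can be said of them.

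Of 32 other peptide receptor genes 20 were above the threshold, against 71.5% of all genes. The leading 4 were the glial neurotensin receptor Ntsr2 (12.91, 13.01 and 13.15, rank 380), Ramp1 and Ramp2, which pair with calcitonin-family receptors (ranks 1609 and 4471), and Trhr, the thyrotropin-releasing hormone receptor (9.25, 9.82 and 10.63). Calcrl, the partner of Ramp1 in the CGRP receptor, was below (5.51, 6.02 and 6.17). The largest spread above the threshold was that of Galr2, a galanin receptor (6.54, 7.13 and 8.03), and of Calcr, the calcitonin receptor (7.91, 8.64 and 9.39). The members below were Hcrtr2, Galr1, Mchr1, Avpr1a, Avpr1b, Calcrl, Ramp3, Sstr5, Grpr, Npy2r, Oxtr and Tacr2. Galr1 (5.38, 6.67 and 7.06) and Avpr1a (5.40, 6.17 and 7.06) were lowest in animal 16, and Oxtr, the oxytocin receptor, lay near the array floor in every animal (4.52, 4.67 and 4.88).

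Ionotropic receptors for GABA and glutamate are built from subunits of separate genes. Of 15 measured GABAA subunits 8 were above the threshold, against 71.5% of all genes. They were led by Gabrb1 (12.89, 13.28 and 13.49), Gabrb2 (12.21, 12.42 and 12.65), Gabra2 (11.50, 11.92 and 12.32) and Gabra5 (10.52, 10.86 and 11.24). The largest spread was that of Gabre (6.76, 7.61 and 8.27) and Gabrg1 (8.07, 8.86 and 9.45). Gabra3, Gabra6, Gabrg3, Gabrp, Gabrq, Gabrr1 and Gabrr2 were below. The GABAB receptor genes Gabbr1 (rank 318) and Gabbr2 (rank 1401) and the glycine receptor genes Glrb (rank 1110) and Glra2 (rank 2266) were above, while Glra1 and Glra3, with means of 5.25 and 4.83, were below.

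Of 17 ionotropic glutamate receptor genes 13 were above the threshold, near the 71.5% of all genes. Gria2, the AMPA receptor subunit that limits calcium entry, had the best rank of all receptor genes listed here, at 14.23, 14.42 and 14.55 (rank 60). Gria3, Gria1 and Grin1, the obligatory NMDA receptor subunit, followed at ranks 1109, 1419 and 3214. Grik1 (6.86, 7.49 and 8.28) and Gria3 (11.28, 11.95 and 12.49) varied most. Grid1, Grin3b, Grin2d and Grik3 were below. Among metabotropic receptors Grm3 (11.07, 11.27 and 11.77) and Grm5 (10.94, 11.23 and 11.83) led, followed by Grm8 and Grm7 with means of 8.69 and 7.88, and Grm2 and Grm6 were below.

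Receptors for monoamines and acetylcholine were mostly below the threshold. Of 30 dopamine, serotonin, adrenaline and histamine receptor genes 11 were above the threshold, against 71.5% of all genes. Htr2c, a serotonin receptor that the choroid plexus also makes in quantity, held rank 504 at 12.21, 12.67 and 13.37, with animal 18 highest. Hrh3, a histamine autoreceptor, read 10.57, 10.85 and 11.13, and Adra2a, an inhibitory adrenergic receptor, 9.17, 9.50 and 9.72. Of the dopamine receptors Drd1 read 9.96, 10.51 and 11.05 and Drd2 8.43, 9.02 and 9.50. Htr4 had the largest spread of the list (7.34, 8.21 and 9.08, SD 0.63), before Adra2c (7.90, 8.29 and 9.18, SD 0.47). Drd3, Drd4, Drd5, Htr1a, Htr1b, Htr1d, Htr2a, Htr2b, Htr3a, Htr3b, Htr5a, Htr5b, Htr6, Adra1a, Adra1d, Adra2b, Adrb1, Adrb3 and Hrh2 were below.

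Of 14 acetylcholine receptor genes the muscarinic Chrm3, Chrm5 and Chrm4 were above the threshold, with means of 7.67, 7.65 and 7.62. Chrm1, Chrm2 and all 9 nicotinic genes measured were below, among them Chrna7 (6.58, 6.83 and 6.98), Chrna4 (5.73, 6.19 and 6.79) and Chrnb2 (6.02, 6.26 and 6.50). The cannabinoid receptor Cnr1, which sits on axon terminals, held rank 815 at 11.43, 12.33 and 12.75. Adora2a, the adenosine receptor of striatal indirect-pathway neurons, read 8.88, 10.66 and 11.56 (SD 0.80), while Adora1 read 8.32, 8.50 and 8.78 and Cnr2 was below. Both corticosteroid receptors were above the threshold: Nr3c1, the glucocorticoid receptor, at 10.39, 10.65 and 10.91, and Nr3c2, the mineralocorticoid receptor, at 9.77, 10.35 and 10.52.

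The labelled tissue was compared with markers of the CeA and its neighbours. Of 14 measured markers of CeA neurons 12 were above the threshold, against 71.5% of all genes, and the median rank of the 14 was 4211.5. Beside the peptides already given, Zfhx3, a transcription factor, read 10.28, 11.37 and 11.97, Prkcd, the protein kinase that marks a large class of lateral CeA neurons, 8.65, 9.75 and 10.16, and Isl1 7.56, 8.05 and 8.86. Calcrl and Ppp1r1c (4.49, 4.68 and 4.78) were below. All 15 markers of striatal medium spiny neurons, many of which the CeA also makes, were above, with a median rank of 3763. The highest were Bcl11b (11.45, 12.04 and 12.29), Ptpn5 (10.83, 11.07 and 11.41), Ppp1r1b (10.33, 10.85 and 11.42) and Pde10a (10.35, 10.80 and 11.32), and Adora2a and Foxp1 (9.85, 10.65 and 11.77) varied most.

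Markers of the glutamatergic cortex and basolateral amygdala varied widely between animals. Of 11 measured 9 were above the threshold (median rank 8829), against 71.5% of all genes, and 5 of the 9 had an SD over 0.5, against 2.08%. Cyp26b1 and Lmo3 led at ranks 1213 and 1349, Rorb held rank 6855, and the neuritin gene Nrn1 read 8.28, 9.51 and 11.77. The transcription factor Neurod6 ran from 5.42 to 9.49 (median 7.59). Thbs2 and Tbr1 were below, and Tbr1 lay near the floor in every animal (4.52, 4.74 and 4.98). Of 12 measured markers of hypothalamus and thalamus 4 were above: Tcf7l2 (10.41, 10.78 and 11.22), Slc17a6, Lef1 (8.38, 8.54 and 8.83) and Avp. Sim1 and Zic1, which mark hypothalamic and thalamic neurons, had means of 4.76 and 5.67.

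Markers of glia included many of the genes of highest signal. All 13 astrocyte genes were above the threshold with a median rank of 358, led by the gap junction gene Gja1 (14.63, 14.75 and 14.89), S100b (14.47, 14.62 and 14.73), Aldoc (13.98, 14.14 and 14.23) and the water channel Aqp4 (13.74, 13.92 and 14.11). Their median SD, 0.087, was below that of all genes above the threshold, 0.13. Gfap was the most variable of them (12.35, 13.18 and 13.67, SD 0.48). All 14 oligodendrocyte and myelin genes were above too, with a median rank of 567, led by Mbp, Mobp (14.23, 14.77 and 15.16), Cldn11 (14.04, 14.58 and 14.85) and Cnp (13.57, 14.11 and 14.57). Their median SD was 0.40, and their mean deviation from the average animal ran from -0.61 in animal 20 to 0.63 in animal 18. The list includes Enpp2, which is also on the choroid plexus list. It read 11.96 in animal 20, its lowest, and 15.18 in animal 18, its highest (SD 0.98). Of 7 genes of oligodendrocyte precursors 6 were above, led by Olig1 (11.88, 12.71 and 13.18) and Pdgfra (12.15 ± 0.12, SD, n = 10), and Olig2 was below on both of its probe sets (mean 5.57 on the higher).

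Of 17 genes of neurons in general 16 were above (median rank 1079). Snap25, a synaptic fusion protein, read 14.24, 14.40 and 14.54, Map2, a dendritic protein, 14.06, 14.36 and 14.46, Gap43, of growing axons, 13.91, 14.22 and 14.31, and Eno2, the neuronal enolase, 13.55, 13.74 and 13.89. Syt1 lay just below the threshold (6.51, 7.12 and 7.44). The neurofilaments Nefm (SD 0.36) and Nefh (SD 0.32) varied most. Among markers of interneurons Calb1 (11.77, 12.02 and 12.12), Npy, Calb2 (10.01, 10.85 and 11.41) and Reln (10.01, 10.37 and 11.62) led, Pvalb varied most (6.51, 8.24 and 9.43, SD 0.91), and Nos1 was below (5.66, 5.86 and 6.29).

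Of 14 microglial genes 12 were above the threshold and of 15 vascular genes 13, against 71.5% of all genes. Those above had median SDs of 0.14 and 0.18, against 0.13 for all genes above the threshold. The cathepsin gene Ctss held rank 365 (12.70, 13.05 and 13.19), and the purinergic receptor P2ry12 read 10.64, 10.83 and 10.92, C1qa 9.75, 9.93 and 10.23, and Csf1r 9.68, 9.85 and 9.97. The SD of C1qb and Itgam, the most variable microglial genes above the threshold, was 0.22 and 0.24. Cd68 (6.48, 6.68 and 6.93) and Ptprc (5.84, 6.29 and 6.48) were below. Of the vascular genes the glucose transporter Slc2a1 (10.95, 11.04 and 11.29), Slco1a4 (10.95 ± 0.18, SD, n = 10), Cldn5 (10.63, 10.71 and 10.95) and Rgs5 (9.38, 9.88 and 10.15) led, and Flt1 and Kcnj8 were below. Ocln, a tight junction gene that the choroid plexus also makes, varied most (8.41, 8.55 and 9.89, with animal 18 highest), before Tagln (8.40, 8.92 and 9.53).

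Immediate early genes, which neurons switch on within minutes of activity or handling, were measured here in animals that had no ethanol. Of 18 measured 15 were above the threshold, against 71.5% of all genes. Egr1 held rank 457 (12.46, 12.82 and 13.18), Homer1 rank 1328, Fos rank 1789 (10.81, 11.49 and 11.95) and Dusp1 rank 3208. Animal 21 was lowest for Fos, Dusp1, Egr2, Arc, Junb, Nr4a1 and Fosb, and animal 12 was highest for Fos, Dusp1, Egr2, Arc and Junb. Over all 15 the mean deviation was highest in animal 15 (0.39), followed by animals 20 (0.31) and 16 (0.27), was 0.13 in animal 12 and was lowest in animal 21 (-0.35). This mean includes Bdnf, which falls into group B below. Bdnf was 9.20 in animal 20 and 8.69 in animal 16, its highest values, and 6.20 in animal 12, its lowest. It therefore raises animals 20 and 16 and lowers animal 12 in this order. Bdnf (6.20, 7.22 and 9.20, SD 1.08) and Egr2 (9.67, 10.35 and 11.20, SD 0.53) varied most, and Ier2, Fosl2 and Egr3 were below. All 13 genes known to be induced by glucocorticoids were above, led by Klf9 (12.98, 13.18 and 13.38), Sgk1 (12.49, 12.80 and 13.40), Tsc22d3 (11.70, 12.02 and 12.22) and Txnip (10.20, 10.65 and 11.54), with 0 of 13 over an SD of 0.5, a count that says little beside the 2.08% of all genes. Txnip and Cdkn1a (8.85, 9.03 and 10.15) varied most, both highest in animal 18.

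Of 38 genes of other organs 5 were above the threshold: Myh1, Pnlip, Krt10, Alb and Ins1. The median mean of all 38 was at the 16th percentile of probe sets. Myh1, named for a skeletal muscle myosin, gave signal on all 5 of its probe sets, with means of 11.62 to 13.96, while the muscle genes Ckm (5.06, 5.40 and 5.54), Actn3 (5.11, 5.34 and 5.71) and Mb (4.63, 4.89 and 4.97) were near the floor. The symbol Myh1 comes from the platform annotation, and whether these probe sets measure that gene was not tested. Pnlip, a pancreatic lipase, read 9.29 ± 0.23 (SD, n = 10), while the pancreatic Prss1, Cpa1 and Cel had means of 4.65, 5.39 and 5.87. Of 9 blood genes 3 were above the threshold: Hbb at rank 178 (13.08, 13.76 and 14.81), Hba-a3 (10.73, 11.42 and 12.62) and the platelet gene Pf4 (7.74, 8.31 and 9.67), all highest in animal 18. Alas2, Slc4a1, Ppbp, S100a8, S100a9 and Hbe1 were below.

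**Figure D2:**
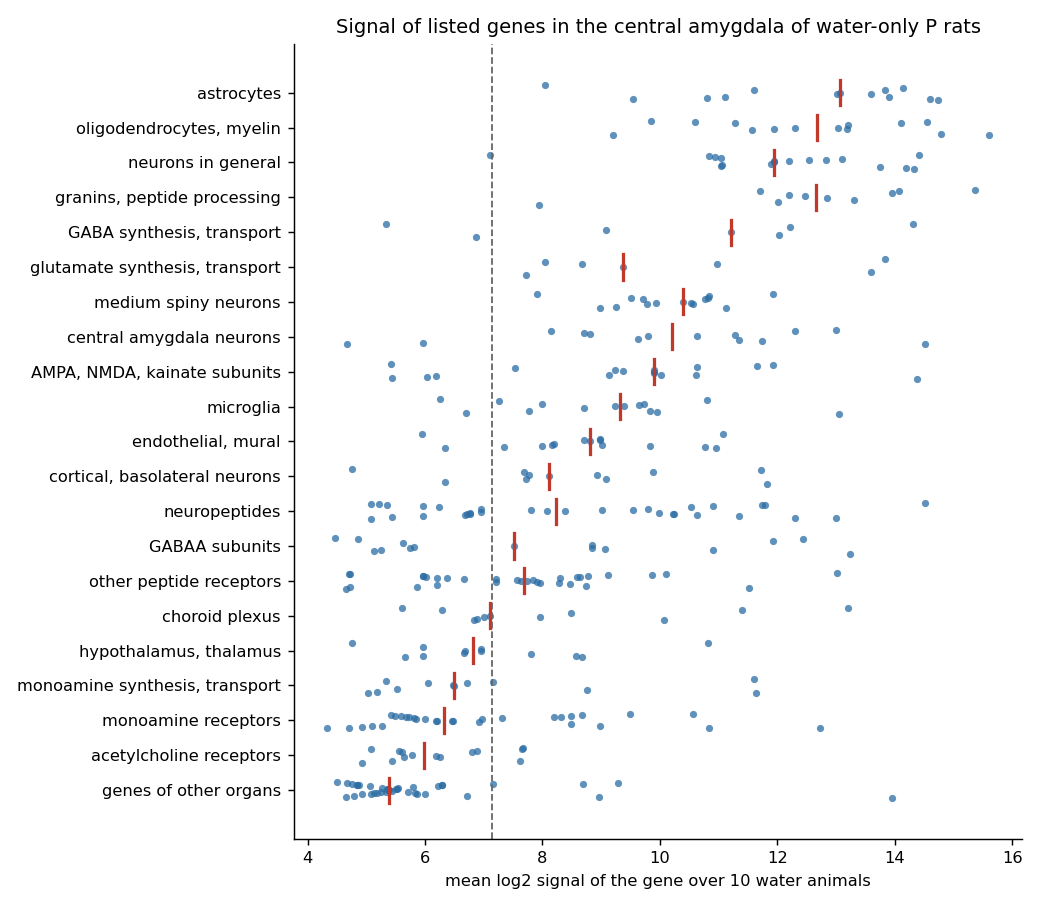
Mean log2 signal over 10 water animals of the measured members of 21 gene lists, 1 point per gene, with a bar at each list's median and a dashed line at the threshold of 7.14. Astrocyte genes have the best median rank (358), and all but 5 of 38 genes of other organs lie left of the threshold.

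Most genes were close to level between the 10 animals. The median SD of the 10171 genes above the threshold was 0.13, the 90th percentile was 0.28, and 2778 genes had an SD under 0.1. The 10 most stable were Zfyve27, an endosomal protein (SD 0.023), Nelfb, a subunit of the complex that pauses RNA polymerase (SD 0.023), COX2, which lies at the top of the scale, the nuclear anchor Akap8, the RNA methylation reader Ythdc1, the splicing protein Snrpa1, the ubiquitin ligase Nedd4, the GTPase Rheb and the chromatin proteins Rad54l2 and Chd2. For these the highest animal exceeded the lowest by 1.05 to 1.09 times. The SD is that of the named probe set: other probe sets of Nedd4 above the threshold had SDs of 0.11 to 0.42. For scale, the 9 hybridisation controls, which are added to every sample in the same amount, had SDs of 0.065 to 0.20. The 12 poly-A control probe sets had larger SDs, 0.18 to 0.57, so the highest of them passed the SD of 0.5 used below.

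At the other end 212 genes (2.08%) had an SD over 0.5 and 35 had an SD over 1. Ttr, transthyretin, the thyroid hormone carrier that the choroid plexus secretes, stood first, with 6.84, 11.47 and 15.94 (SD 3.78). The lowest value, in animal 14, was below the expression threshold and the highest, in animal 18, was close to the highest value on these arrays (16.13), so no exact fold is given. Animals 15, 16, 18 and 21 lay at 14.80 or above, and animals 14, 17 and 20 at 7.01 or below. Next came F5, coagulation factor V (5.10, 5.82 and 13.17), Sostdc1, a secreted inhibitor of BMP and Wnt signals (5.67, 6.28 and 13.13), Mfrp (5.66, 5.96 and 11.66), the folate receptor Folr1 (6.37, 7.54 and 12.98) and the growth factor binding protein Igfbp2 (8.21, 8.71 and 13.66). In these 5 animal 18 was highest and animal 16 next. The medians of F5, Sostdc1 and Mfrp lay below the threshold of 7.14. Their means passed it only through animals 15, 16, 18 and 21, and the same animals set their place by SD.

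The rest of the 25 most variable genes were the sulfate transporter Slc13a4, the collagens Col8a1 and Col8a2, Scgb1c1, the transcription factors Bhlhe22, Msx1 and Neurod6, the ciliary gene Cfap144, the growth factors Mdk and Igf2, Nrn1, the prostaglandin synthase Ptgs2, the vesicular zinc transporter Slc30a3, Slc17a7, Tc2n, the cell cycle inhibitor Cdkn1c, Nt5dc2, the small proteoglycan Ogn and Serpinb1a. Of these Col8a1, Scgb1c1 and Tc2n also had medians below the threshold (6.96, 6.60 and 6.85). The list of 25 leans on a few animals. Without animal 18, 145 genes had an SD over 0.5, 132 of them among the 212, and 15 of the 25 were still in the leading 25, with Ttr still first. Without animals 15 and 18 the count was 141. Of the 212, 31 genes had another probe set above the threshold, and on all 31 it moved with the named one at r over 0.8 (median 0.97 over 10 animals), while its own SD was over 0.5 on 19 of the 31.

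**Figure D3:**
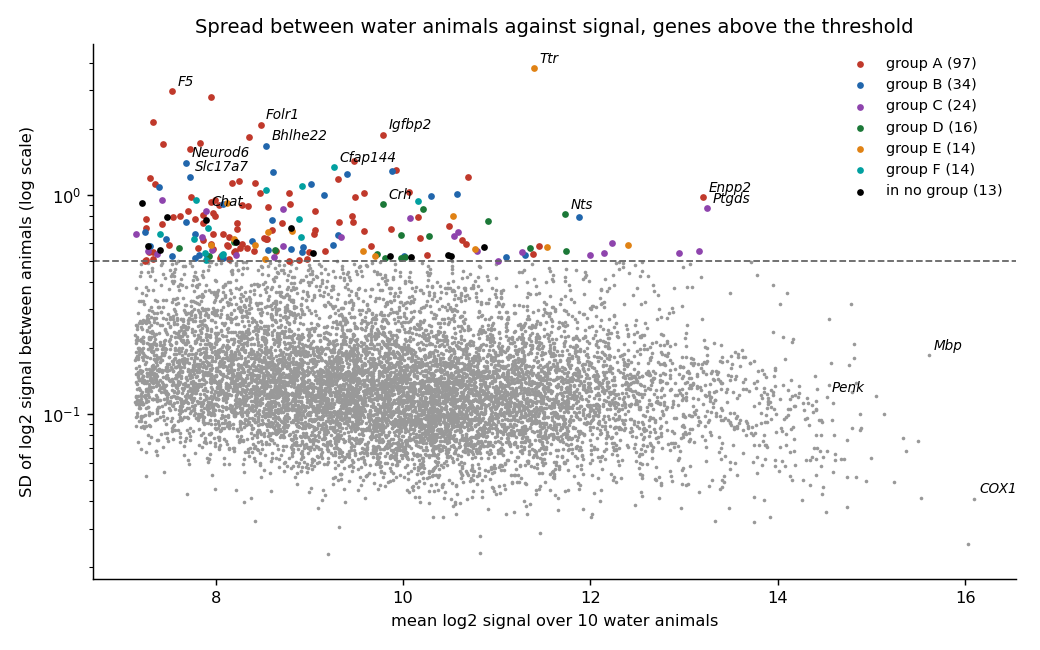
SD between 10 water animals (log scale) against mean log2 signal for the 10171 genes above the threshold, with the 212 genes over an SD of 0.5 (dashed line) coloured by the group they fell into. Ttr has the largest SD, 3.78, and COX1, the gene of highest signal, has an SD of 0.041.

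The 212 genes were grouped by their pattern over the animals. Average-linkage clustering on 1 minus the correlation, with a limit at a distance of 0.4, placed 199 of them in 6 groups of 5 genes or more. Since the groups were built from these values, they are described and not tested, and the correlations are descriptions over the same 10 arrays. The mean deviation of a group below is the average, over its genes, of each animal's log2 value minus the mean of the 10. In tissue of mixed cells a larger share of a cell type and more RNA per cell cannot be told apart.

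Group A was the largest, with 97 genes. It held F5, Sostdc1, Mfrp, Folr1, Igfbp2, Slc13a4, Igf2 and the collagens Col1a2 (8.16, 8.78 and 10.96) and Col3a1 (7.47, 7.97 and 10.36). Its mean deviation was 1.98 in animal 18 and 0.84 in animal 16, 0.047 in animal 15, -0.030 in animal 21 and -0.65 to -0.38 in the other 6. Of the fixed marker lists it held 10 of the 13 meningeal and fibroblast genes above the threshold (Aldh1a2, Col1a2, Col3a1, Dcn, Igf2, Igfbp2, Lum, Mgp, Ogn and Slc13a4), 4 of the 5 choroid plexus genes (Enpp2, Folr1, Prlr and Sostdc1), the blood genes Hba-a3 and Pf4 and Foxj1, the master regulator of motile cilia. Its other genes included Cp, Mmp2, Mmp14, Cd74 and RT1-Da.

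Choroid plexus markers below the threshold on average showed the same animals. Otx2, a transcription factor of the choroid plexus, read 5.27, 5.93 and 11.28, Kl, klotho, 4.76, 5.13 and 8.74, Calml4 4.97, 6.15 and 10.40, and Kcne2 5.83, 6.02 and 7.99, each highest in animal 18. Aqp1 (6.78, 6.93 and 8.32) was also highest there, while Kcnj13 (6.45, 6.90 and 7.13) was lowest there. The 5 choroid plexus genes above the threshold had a mean deviation of 3.74 in animal 18 and -1.94 in animal 17. The 13 meningeal genes ran from -0.88 in animal 20 to 2.11 in animal 18. Slc6a13 and Islr, also meningeal, were below the threshold and again highest in animal 18 (7.69 and 7.37). In the same animal the 16 general neuronal genes had a mean deviation of -0.23 and the 8 GABAA subunit genes one of -0.43, their lowest of the 10 animals, and whether one bears on the other was not tested.

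Group B held 34 genes, with markers of glutamatergic forebrain neurons at its head. Beside Bhlhe22 (6.71, 8.09 and 11.25), Neurod6, Nrn1, Ptgs2, Slc30a3 and Slc17a7 it held Bdnf, Mef2c, C1ql3, Rprm, Fezf2 and Cux2 and the peptides Grp, Vip and Adcyap1. It held 5 of the 9 cortical and basolateral markers above the threshold. Its mean deviation was 1.17 in animal 20, 0.83 in animal 16, 0.67 in animal 15 and 0.64 in animal 13, and between -0.84 and -0.21 in the other 6, lowest in animals 17 and 14. Animal 18, highest in group A, lay at -0.27. The window of 250 bases before the start of Neurod6, a neurogenic transcription factor and the gene with the second largest spread of the group, is shown because motifs bound by factors of developing and of active neurons are found in it (chr4:86180156-86180405, minus strand, GRCr8, RefSeq). Capitals mark CAGATG, the E-box bound by neurogenic factors, at 112 to 107 and 41 to 36 bases before the start, and TGACGTCA, the cyclic AMP response element, at 53 to 46.
Neurod6: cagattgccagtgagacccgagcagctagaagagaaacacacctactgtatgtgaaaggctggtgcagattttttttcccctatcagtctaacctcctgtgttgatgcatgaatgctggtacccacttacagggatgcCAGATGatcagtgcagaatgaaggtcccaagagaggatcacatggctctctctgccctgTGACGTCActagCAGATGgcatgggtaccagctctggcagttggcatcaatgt
Windows were found for 25 of the 34 genes. Of the 25, 6 held CAGATG on either strand (24%), against 13.7% of 27457 gene windows, and 1 held TGACGTCA, against 1.7%. In group D 3 of 13 windows held CAGATG (23.1%), so it was not particular to group B. A match of letters is a description of the window, not a site.

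Group C held 24 genes, among them cholinergic and myelin genes. Chat, Slc5a7, Slc18a3, Ngfr (6.05, 7.35 and 9.08) and Slc10a4, which mark cholinergic neurons of the basal forebrain, were in it together with the myelin-related Ugt8 (9.23, 10.59 and 11.54), Opalin (10.36, 11.24 and 12.04), Hapln2, Cryab and Fa2h, and with Ptgds, prostaglandin D synthase (12.15, 12.95 and 15.16). Its mean deviation was 0.80 in animal 18, 0.76 in animal 17 and 0.63 in animal 16, and -0.82 in animal 15 and -0.78 in animal 20. By runs of the accession order it was -0.82 to -0.051 in animals 12 to 15 and 0.020 to 0.80 in animals 16 to 19. Centred within runs, the SD of Ngfr was 0.56 against 0.95, lower as for Chat, Slc5a7 and Slc18a3 above. The order of the highest animals differed between genes: Chat was 9.39 in animal 17 and 8.16 in animal 18, while Ptgds was 13.53 in animal 17 and 15.16 in animal 18. The 5 genes most like Chat over the 10 animals were Slc5a7 (r = 0.995), Slc10a4 (0.98), Ngfr (0.97), Slc18a3 (0.96) and Cptp (0.95).

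Group D held 16 genes, 6 of them neuropeptides: Crh, Nmb, Nts, Tac3, Pnoc and Cartpt. With them were Ebf1, a transcription factor (7.61, 8.87 and 9.11), Ubash3b (8.95, 10.43 and 11.13), the chloride channel gene Ano2 (7.10, 8.10 and 8.99), Spata13, Sertm1, Vwc2 and the potassium channel partner Kcnip1. Its mean deviation was -1.06 in animal 16, -0.79 in animal 13 and -0.41 in animal 15, and it was highest in animals 14 (0.64) and 12 (0.60). The 5 genes most like Crh were Nts (r = 0.97), Pdyn (0.96), Tac3 (0.96), Ptpdc1 (0.96) and Cdhr1 (0.95). The upstream window of Cartpt is shown because it holds the letters of the cyclic AMP response element, through which such signals act on many peptide genes (chr2:32991236-32991485, minus strand, GRCr8, RefSeq). Capitals mark TGACGTCA at 142 to 135 bases before the start and CATCTG, the E-box letters of Neurod6 read on the opposite strand, at 191 to 186.
Cartpt: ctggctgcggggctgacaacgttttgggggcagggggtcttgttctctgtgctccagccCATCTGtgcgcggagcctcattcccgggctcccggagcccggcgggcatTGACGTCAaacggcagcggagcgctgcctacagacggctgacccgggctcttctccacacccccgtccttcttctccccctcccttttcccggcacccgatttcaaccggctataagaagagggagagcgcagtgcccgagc
Of the 13 genes of the group with a window 1 held TGACGTCA, against the 1.7% of all gene windows given above. In groups B and F 1 window of 25 and 1 of 11 held it. This too is a match of letters, and whether it is a site was not tested.

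Group E held 14 genes: Ttr and 13 others, among them Pvalb, Adora2a, the sodium channel subunit Scn4b (8.82 ± 0.68, SD, n = 10), Arpp21 (11.09, 12.38 and 13.22), Foxp1, the retinoic acid receptor Rarb (8.66, 9.74 and 10.39), Htr4 and Gucy1a1. Its mean deviation was 1.08 in animal 16 and 0.99 in animal 15, and lowest in animal 14 (-1.28). Ttr was also close to genes of group A. The 5 genes most like it were Rp2 (r = 0.93), Dhtkd1 (0.91), F5 (0.90), Faxdc2 (0.89) and Sostdc1 (0.89), and the Ttr value of 14.81 in animal 21 went with an Adora2a value of 10.80, near that gene's median. Of these Rp2, Dhtkd1 and Faxdc2 changed little between animals, with SDs of 0.15, 0.073 and 0.28 against 3.78 for Ttr.

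Group F held 14 genes, headed by genes of motile cilia, the beating hairs of ependymal cells that line the ventricles. It was led by Cfap144 (6.03, 9.45 and 11.02), Mlf1 (6.34, 9.19 and 10.08), Cdhr4 (6.21, 8.53 and 9.79), Ak7 (5.48, 8.03 and 8.69), Dynlrb2, a dynein light chain (7.89, 10.33 and 11.17), and Tmem212 (6.91, 9.05 and 9.73), and it held 4 of the 7 ependymal markers, Ak7, Dynlrb2, Tmem212 and Rsph1. Animal 17 was the lowest for all 7 genes just named, with a mean deviation of -1.84 for the group, while the other 9 animals lay between -0.30 and 0.69. The window of Cfap144 is shown as that of the gene with the largest spread of the group (chr10:44019282-44019531, minus strand, GRCr8, RefSeq). Capitals mark GTTGCC, the core of the X-box to which ciliary RFX factors bind, at 70 to 65 and 21 to 16 bases before the start, and GGCAAC, the same on the other strand, at 220 to 215.
Cfap144: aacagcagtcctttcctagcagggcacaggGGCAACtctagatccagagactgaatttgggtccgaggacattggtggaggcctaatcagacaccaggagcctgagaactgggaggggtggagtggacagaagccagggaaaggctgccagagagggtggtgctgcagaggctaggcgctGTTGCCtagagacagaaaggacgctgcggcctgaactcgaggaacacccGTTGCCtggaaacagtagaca
Of the 11 genes of the group with a window 3 held GTTGCC on either strand (27.3%), against 9.9% of 27457 gene windows. In group D 3 of 13 windows held it (23.1%), so it was not particular to group F. Here too a match of letters is not a site.

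**Figure D4:**
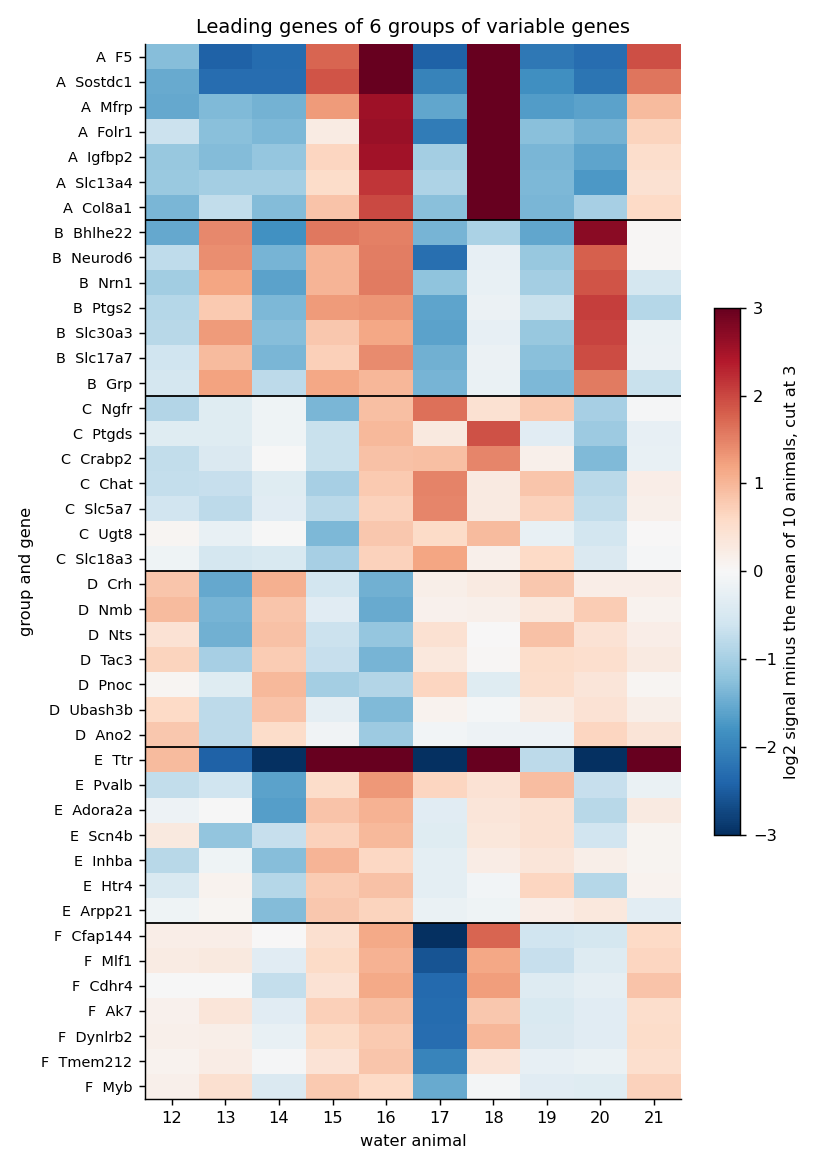
Log2 signal minus the mean of 10 animals for the 7 most variable genes of each of the 6 groups (rows), by water animal (columns), with the colour scale ending at a deviation of 3. Group A is darkest red in animals 18 and 16, group B in animal 20, and group F is blue in animal 17.

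Groups shared part of their order of animals. Over the 10 animals the correlation of group means was -0.65 for D and E and -0.59 for B and D. It was 0.58 for A and C, 0.55 for A and E, 0.54 for E and F and 0.53 for A and F, and 0.073 for A and B. The mean of the 14 genes of group E is not scaled and includes Ttr, with an SD of 3.78. The correlations of E without Ttr were not computed. The correlations of group means are descriptions over 10 animals, several of which weigh heavily in more than a single group. At a distance of 0.3 the clustering gave 7 groups and at 0.5 it gave 5, and the largest held 97 and 122 genes.

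The 13 variable genes in no group had patterns of their own. Ccn3, a matricellular protein, was 9.75 in animal 16 and at most 7.32 in the other 9, and Nxph3, a neurexin ligand, was 9.87 in animal 16 and at most 8.21 in the others. RT1-T24-3, a class I histocompatibility gene, lay at separate levels: 6.85 to 7.24 in animals 12, 18, 20 and 21 and 8.26 to 8.67 in the other 6. Dlx1, a transcription factor of GABAergic neurons, was highest in animals 13 (9.90) and 14 (9.67) and at most 9.19 elsewhere, and Frem3 was highest in the same animals (8.73 and 8.65). The others were Mrc1, Osbpl1a, Nek1, Lgals3, Egr2, Strip2, Cadps2 and Slc3a1.

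Likeness was also computed for Mag, Col1a2 and Fos against all genes above the threshold. The 5 genes most like Mag, a myelin gene (11.26, 11.92 and 12.59, SD 0.44), were Akr7a3, Ninj2, Mog, Myrf, the myelin regulatory factor, and Wipf1, all at r of 0.991 to 0.996. For Col1a2 they were Slc6a20a, Ifitm2, Decr1, Efcab14 and Nfe2l2 (0.97 to 0.99). For Fos they were Arc (0.95) and Klf4 (0.93), both activity-regulated, and Chd8, Nup214 and Exosc8 (0.88 to 0.92). Chd8 and Nup214 had SDs of 0.076 and 0.12, below the median of 0.13 of genes above the threshold. Other Nup214 probe sets, with means of 8.17 and 8.01, correlated with the named one at r = -0.47 and 0.18. Among 10171 genes and 10 animals high correlations also arise between unrelated genes, and the r values of the most alike genes are maxima over all genes.

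Correlations between 12 markers of cell types and circuits were tested in all 66 pairs over the 10 animals, two-sided by permutation of 100000 resamples with Benjamini-Hochberg adjustment over 66. Prkcd and Crh, which mark largely different CeA neurons, were correlated (Pearson r = 0.95, permutation p adjusted 0.0158), and this was the 1 pair that passed at 0.05. Spearman's rho was 0.81 (adjusted permutation p = 0.107). Animals 13 and 16 were lowest for both genes, and without these 2, the farthest from the median of Prkcd, r was 0.84. With values centred within runs of the accession order r was 0.96, with an adjusted p of 0.143 from permutations within runs, and without animal 15 it was 0.94 with an adjusted permutation p of 0.0591.

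The remaining 65 pairs did not pass by Pearson's r. Closest were Ttr and Ppp1r1b (r = 0.84), Crh and Sst (0.81) and Mag and Col1a2 (0.79), each with an adjusted permutation p of 0.0777. Prkcd and Sst reached r = 0.79 with an adjusted permutation p of 0.10 and a Spearman's rho of 0.93 with an adjusted permutation p of 0.0244. They lay on a near-straight line apart from animal 13, without which r was 0.98. Slc17a7 and Crh ran in opposite directions (r = -0.69, adjusted permutation p = 0.236). Unadjusted, 10 of the 66 pairs had a permutation p under 0.05.

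**Figure D5:**
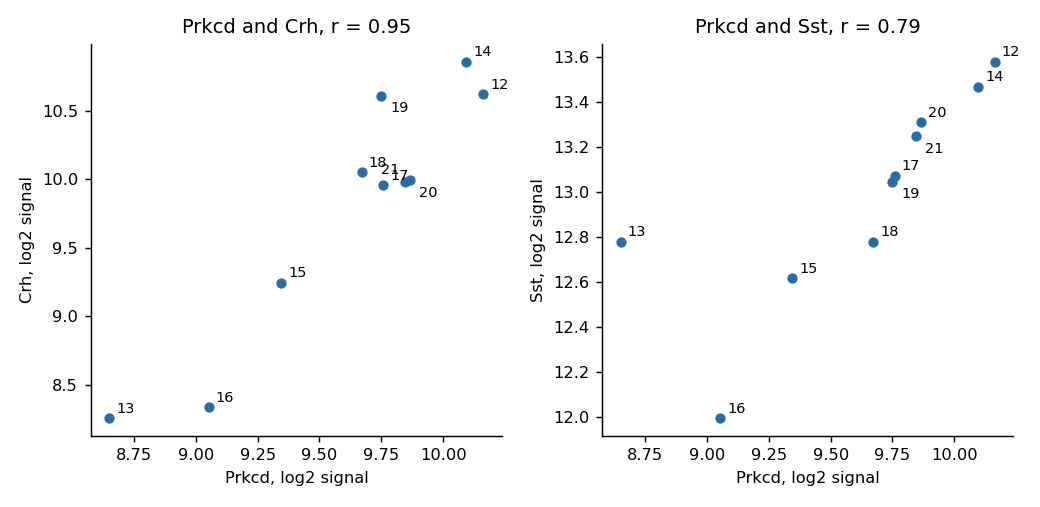
Log2 signal of Crh (left) and Sst (right) against Prkcd, 1 numbered point per water animal. Animals 13 and 16 lie lowest for Prkcd and Crh, and animal 13 lies off the line of the other 9 for Sst.

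Over all probe sets above the threshold, the first principal component of the 10 arrays held 36.9% of the variance (jackknife SE 8.81) and the next 24.5%. The genes with the largest weight on the first were F5, Ttr, Sostdc1, Folr1, Mfrp, Igfbp2, Slc13a4 and Scgb1c1, and animals 18 (0.78) and 16 (0.39) had its largest scores. Animal 15 dominated the next component (score 0.78), opposite to animal 17 (-0.47). The genes with the largest weight on it were Ttr, F5, Sostdc1, Bhlhe22, Mfrp, Neurod6, Ptgs2 and Nrn1. Of these Ttr, F5, Sostdc1 and Mfrp also led the first component, and the others also led the third. The third (11.1%) carried Bhlhe22, Neurod6, Slc17a7, Slc30a3, Nrn1, Ptgs2, Bdnf and C1ql3 and set animal 20 (0.62) against animal 14 (-0.52).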

How the data were processed

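Per the labels' protocols, CeA total RNA was purified with Trizol and then Qiagen RNeasy, and biotin-labelled with the Affymetrix 3' IVT Express kit, with 1 array per animal. The deposited values are log2 values that the authors made with RMA, per the submitters' processing notes, which name no version. The table held 31099 probe sets, 57 of them controls, with 0 missing values. In the probe annotation 20826 probe sets carried a single symbol, 436 carried more than 1 and 9780 none, and genes were named from the first kind only. The 20758 identifiers found in the GRCr8 gene table kept their symbols.

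Means, ranks, SDs, clustering, permutation tests and principal components (not scaled) were computed for the 10 water arrays with Python 3.11.15, numpy 2.4.6, pandas 2.3.3 and scipy 1.17.1, and the SD and pair steps were tested on simulated data. The number of arrays limits the precision.

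The members and the 36 gene lists were chosen with earlier results of these data known. The naming rule took the 20 genes of highest mean, the 25 of largest and 10 of smallest SD, 20 fixed genes and, per list, the 4 highest members, those below the threshold and the 2 most variable. Genes most like another were fixed for Ttr, Mag, Col1a2 and Fos, while those for Chat and Crh, and other members of groups and lists, were chosen after their values were seen. Accessions fall into 3 runs (animals 12 to 15, 16 to 19, and 20 and 21) that no label calls a batch. Promoter windows, 1 per gene, came from RefSeq and both strands were searched. The threshold, the filter, the centring, the probe set per gene and the animals included were varied in turn, as the closing section gives.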

Additional observations from a re-analysis of the deposited data

Results flagged for a closer look

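Each gene named above was checked for an animal far from the other 9: its gap to the nearest animal, divided by the gene's whole range, was compared with 0.466, the value that chance passes in about 1 group of 20. Of 400 genes checked 48 passed. Over all 10171 genes above the expression threshold 1224 passed (12%). In these the odd animal was most often 15 (396 genes lowest, 134 highest) or 18 (301 highest, 162 lowest). Each gene below is given with the log2 value of the odd animal, that of the nearest animal and the gap as a share of the range.

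Animal 18 was highest for Aldh1a2 (8.63, nearest 7.66, share 0.518), Aqp1 (8.32, nearest 7.54, share 0.505), Cd74 (9.75, nearest 8.33, share 0.528), Cdkn1a (10.15, nearest 9.38, share 0.594), Foxj1 (9.29, nearest 8.25, share 0.488) and Hbb (14.81, share 0.467). It was also highest for Islr (7.37, nearest 6.57, share 0.547), Kl (8.74, nearest 6.59, share 0.54), Mgp (12.11, nearest 10.56, share 0.57), Mmp14 (11.55, nearest 9.93, share 0.598), Ocln (9.89, nearest 9.04, share 0.573) and Pf4 (9.67, nearest 8.68, share 0.515). The others in which it was highest were Prlr (12.59, nearest 10.73, share 0.521), RT1-Da (8.94, nearest 7.92, share 0.536), Reln (11.62, nearest 10.78, share 0.522), Scgb1c1 (11.68, nearest 8.85, share 0.532) and Thbs2 (7.53, nearest 6.48, share 0.677). Animal 18 was lowest for Gap43 (13.91, nearest 14.11, share 0.482) and Nppc (6.19, nearest 6.65, share 0.502).

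Animal 15 was highest for Chrm4 (8.17, nearest 7.69, share 0.621), Grik3 (5.66, nearest 5.48, share 0.546), Grm5 (11.83, nearest 11.28, share 0.614) and Olig2 (5.96, nearest 5.62, share 0.587). Animal 15 was lowest for Actg1 (14.33, nearest 14.76, share 0.67), Apoe (14.72, nearest 15.00, share 0.697), Cst3 (14.90, nearest 15.07, share 0.524), Ctss (12.70, share 0.612), Ddc (8.32, nearest 8.67, share 0.47) and Eef1a1 (14.60, nearest 14.83, share 0.654). It was also lowest for Gabbr1 (12.90, nearest 13.10, share 0.47) and Grm7 (7.12, nearest 7.69, share 0.559).

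Animal 17 was highest for Glra3 (5.04, nearest 4.89, share 0.476) and Hcrtr2 (7.53, nearest 6.91, share 0.471). Animal 17 was lowest for Ak7 (5.48, nearest 7.33, share 0.576), Cfap144 (6.03, nearest 8.66, share 0.527), Dynlrb2 (7.89, nearest 9.74, share 0.565), Mlf1 (6.34, nearest 8.22, share 0.504) and Tmem212 (6.91, nearest 8.64, share 0.614).

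Animal 14 was lowest for Arpp21 (11.09, nearest 12.09, share 0.471), Calca (6.46, nearest 6.67, share 0.605) and Ppbp (5.13, nearest 5.34, share 0.495). Animal 19 was highest for Pmch (8.72, nearest 7.22, share 0.68). Animal 19 was lowest for Adrb3 (4.71, nearest 5.01, share 0.473). Animal 16 was highest for Ccn3 (9.75, nearest 7.32, share 0.757) and Nxph3 (9.87, nearest 8.21, share 0.758). Animal 12 was highest for Rad54l2 (8.50, nearest 8.44, share 0.535). Animal 13 was highest for Htr3b (6.74, nearest 6.50, share 0.514). Animal 20 was highest for Chrna4 (6.79, nearest 6.28, share 0.478).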

How the results depend on the processing

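The count of 10171 genes above the expression threshold was 7755 to 11824 under its 4 alternatives. The count of 212 genes with an SD over 0.5 was 96 with the filter at the 60th percentile and 141 without animals 15 and 18, an alternative added after seeing the data. It was 145 to 253 with each animal left out in turn, lowest without animal 18, and 172 to 309 under the other settings, among them the scaled median absolute deviation (172) and no filter (309). Of the 25 most variable genes 9 remained in the leading 25 at the 60th percentile, 11 with the scaled median absolute deviation and 14 without animals 15 and 18. The first component held 33.5% to 45.5% of the variance with each animal left out. The count of correlated pairs, 1 with all animals, was 0 with values centred within runs of the accession order, 0 without animals 15 and 18, and 0 to 4 with each animal left out: 0 without animal 15, 4 without animal 13 and 2 without animal 16 or 20. The r of Prkcd and Crh was 0.93 to 0.97 with each animal left out, and its adjusted permutation p was 0.172 without animals 15 and 18. The causes were not tested. The mean of each of the 400 named genes moved by less than its SD when arrays were centred or animals left out, while 182 other probe sets of these genes gave another level and 16 did not. The SD of 102 of the 400 genes moved by more than its own standard error without animals 15 and 18. No paired analysis was possible because the 10 animals form a single group. With 10 animals the SDs are imprecise, and genes near the threshold may lie on either side of it.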
